A study of Mus musculus with 2 samples.

Results

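The genes of glycolysis, of glycogen metabolism and of the entry of pyruvate into mitochondria were compared between Lamtor1-deficient (KO) and wild-type (WT) CD4+ T cells of C57BL/6J mice. The set holds 42 genes of 31705 named genes or transcripts on the array. They were chosen by name for their place in these pathways, with earlier results of these data known. Of the 42, 40 were measured and 2 were not. KO and WT cells shared strain and culture: naive CD62L+ cells were purified from spleen and kept for 5 days on plate-bound anti-CD3 and anti-CD28, with 50 ng/ml of IL-2 and 1 ng/ml of human TGFβ added. The RNA was taken to come from these cultured cells, but the extraction protocol names naive cells and the labels do not settle it. The data were 2 arrays with 2 colours on which 1 KO and 1 WT extract were compared, with the dyes swapped on the second array. There was thus 1 extract per genotype, no difference has a check against biological replicates, and no p-value is given. How Lamtor1 was deleted, in which cells, and the age of the mice are not given in the sources used here.

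Glycolysis breaks glucose down to pyruvate in the cytosol and yields ATP without oxygen. Glucose enters through GLUT transporters, is trapped by hexokinases and split into triose phosphates, which lower glycolysis turns into pyruvate. Pyruvate is either reduced to lactate and exported or passed to the pyruvate dehydrogenase (PDH) complex for oxidation in mitochondria. T cells stimulated through CD3 and CD28 are known for a steep rise in glucose uptake and lactate release. The kinase complex mTORC1, which the Lamtor1-containing Ragulator complex anchors to lysosomes, is known to promote this programme, in part through the transcription factors HIF-1α and Myc.

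Values are log2 normalized signals of a gene's brightest probe, given as array 1 (KO in Cy5) and then array 2 (KO in Cy3). A ratio is the log2 ratio of KO over WT averaged over both arrays, and the ± is the technical SD of the 2 arrays. A gene was called lower or higher when it was at least 2-fold apart in the same direction on each array. The level of a probe depends on its sequence, so levels are compared only between KO and WT for the same probe.

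Most genes on the route from glucose uptake to lactate export were lower in KO RNA, 16 of 23 measured. None of the 4 PDH complex genes was, a count that for 4 genes is near the share of all measured genes given next. Of the 40 measured genes, 19 (47.5%) were lower in KO, 0 were higher and 21 were neither, whereas 6.88% of all 14874 measured genes were lower and 2.46% were higher (1024 and 366 genes, or 881 and 111 with median centring in place of loess). The median ratio of the 40 genes was −1.01, which is 2.01-fold lower in KO, against −0.02 over all measured genes. As the set was chosen with earlier results of these data known, these contrasts describe the set and are not independent support. On both arrays 31 of the 40 lay below 0 and 6 above 0, and 3 differed in sign between arrays. The technical SD had a median of 0.14 and was at most 0.36. In bulk RNA, fewer cells with a transcript and less of it per cell cannot be told apart.

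**Figure D1:**
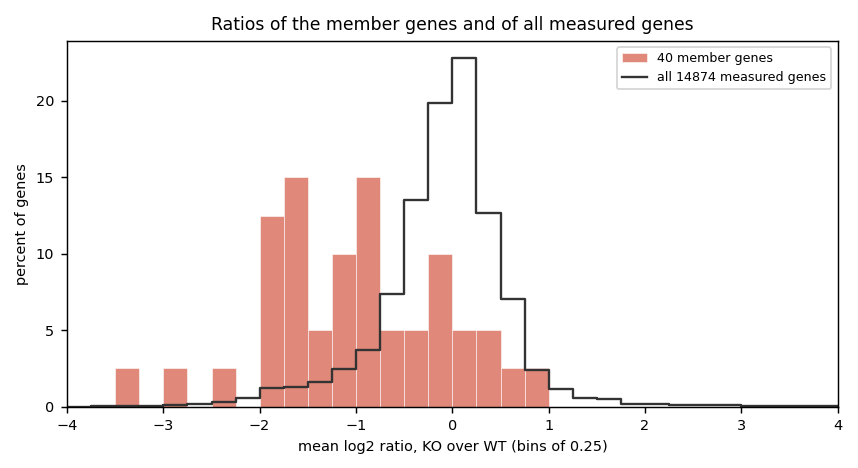
Percent of genes in each bin of 0.25 of the mean log2 ratio KO over WT, for the 40 measured member genes (bars) and for all 14874 measured genes (line); the axis is limited to −4 to 4. The members' median is −1.01 and that of all measured genes −0.02, and no member lies above 1.

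Lamtor1, the targeted gene, stood at 8.08 and 8.14 in KO RNA against 10.04 and 10.07 in WT RNA, a ratio of −1.95 ± 0.03. Its probe stayed above background in KO RNA. As the deleted part of the gene is not known here, it is undecided whether this value checks the labels.

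Markers of other cell types and of cell division differed as well, and their part in the ratios was not tested. Of 14 measured genes of cell division 13 were lower in KO, with summed linear signals of 20078 and 19260 in KO against 78339 and 76786 in WT. Of 10 measured markers of CD8 and NK cells 6 were higher (sums of 10275 and 10500 in KO, 3999 and 3862 in WT). These 6 were Xcl1 (4.03), Klrc1 (1.8) and Klrd1 (1.78), and 3 genes with only a bound because their WT signal was not well above background: Tyrobp (at least 4.3-fold higher in KO), Klrb1c (at least 2.18-fold) and Klra8 (at least 2.26-fold). Of the CD8 chains Cd8a stood at 0.67 and Cd8b1 at −0.55, neither called, and Ncr1 and Klrk1 were not measured. Of 10 measured myeloid and dendritic markers 4 were higher and 1 was lower (sums of 40436 and 39832 in KO, 23765 and 23890 in WT). The higher ones were Fcer1g (4.35), S100a9 (3.96, above background in WT on 1 array), S100a8 (at least 4.92-fold) and Lyz1 (at least 2.97-fold), and the lower one was H2-Ab1 (−1.90). The uncalled Siglech (0.82) and Itgam (0.70) make up most of those sums, and Cd14, Itgax, Adgre1, H2-Aa and Mpo were not measured. All 12 T cell identity genes were measured, of which 3 were lower, Cd4 (−1.18), Cd5 (−1.12) and Trat1 (−2.69), and 0 higher (sums of 75430 and 72576 in KO, 103836 and 102775 in WT). Both measured B cell genes were neither (sums of 468 and 445 in KO, 364 and 310 in WT), with 6 of 8 B cell genes not measured. The only measured erythroid gene, Hbb-bt, was dim in KO RNA, where it was not well above background, and at least 2.47-fold lower than in WT RNA.

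Both glucose transporters of the set were lower in KO. Slc2a1, which encodes GLUT1, the main glucose carrier of activated T cells, stood at 9.56 and 9.44 in KO RNA against 11.19 and 11.41 in WT RNA (ratio −1.80 ± 0.24, 3.48-fold lower). Slc2a3, which encodes the high-affinity carrier GLUT3, stood at 8.49 and 8.31 in KO against 9.98 and 10.22 in WT (−1.70 ± 0.30, 3.26-fold lower). The Slc2a1 ratio minus the Slc2a3 ratio was −0.10, within the technical spread of either gene.

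Hexokinases phosphorylate glucose and so hold it in the cell. Hk2, the inducible isozyme bound to mitochondria, stood at 7.30 and 7.35 in KO and at 8.90 and 9.03 in WT, a ratio of −1.65 ± 0.06 (3.13-fold lower). Hk1, the widely expressed isozyme, stood at 11.46 and 11.02 in KO and at 12.09 and 12.15 in WT. Its ratio of −0.88 ± 0.36 came from −0.63 on array 1 and −1.14 on array 2, so it passed 2-fold on 1 array only. A weaker Hk1 probe gave −0.43. The Hk2 ratio minus the Hk1 ratio was −0.98 on array 1 and −0.55 on array 2. With the scanner software's processed signals Hk2 averaged −2.26 and Hk1 −0.82, so the size of this gap depended on the processing. Hk3 was not measured.

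In upper glycolysis, which turns glucose 6-phosphate into triose phosphates, all 7 genes lay below 0 on both arrays and 5 were lower. Aldoc, an aldolase isozyme known best from brain, had the lowest ratio of the whole set. Its probe, at chromosome 11, 78140198 to 78140257 (mm9, plus strand), read 8.36 and 8.28 in KO against 11.64 and 11.68 in WT. The ratio was −3.34 ± 0.08, or 10.2-fold lower, and ranked 8 from the lowest of all measured genes. Aldoa, the ubiquitous aldolase, stood at 14.10 and 13.88 in KO against 15.83 and 15.65 in WT (−1.75 ± 0.03, 3.36-fold lower). The difference of −1.59 between these isozymes' ratios, −1.56 on array 1 and −1.63 on array 2, was wide beside the technical spread.

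Tpi1 encodes triosephosphate isomerase, which makes both products of the aldolases usable. It stood at 10.47 and 10.45 in KO against 12.57 and 12.35 in WT (−2.0 ± 0.15, 3.99-fold lower; chromosome 6, 124760947 to 124761006, mm9, minus strand). Phosphofructokinase, the committed step, has 3 isozymes, and their ratios were −1.54 ± 0.04 for Pfkp, the platelet type, −1.16 ± 0.08 for Pfkm, the muscle type, and −0.86 ± 0.15 for Pfkl, the liver type. Pfkp and Pfkm were lower, and Pfkl stood at 8.28 and 8.14 in KO against 9.25 and 8.89 in WT. Gpi1, which converts glucose 6-phosphate to fructose 6-phosphate, had a ratio of −0.96 ± 0.14 and passed 2-fold on array 2 only (−0.86 and −1.05). Its 3 probes, which overlap at the end of the transcript, gave −0.96, −0.95 and −0.96.

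The Pfkfb enzymes set the level of fructose 2,6-bisphosphate, the main activator of phosphofructokinase, and none of the 3 measured was called. Pfkfb3, the form with the strongest kinase activity, stood at 8.70 and 8.80 in KO against 9.67 and 9.83 in WT. With −0.97 on array 1 and −1.03 on array 2 it fell just short of the rule, while Ldhb with −1.01 and −1.04 just met it. Pfkfb4 had a ratio of −0.90 ± 0.29 (−0.70 and −1.11), and Pfkfb1 of 0.06 ± 0.04. Pfkfb2 was not measured.

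**Figure D2:**
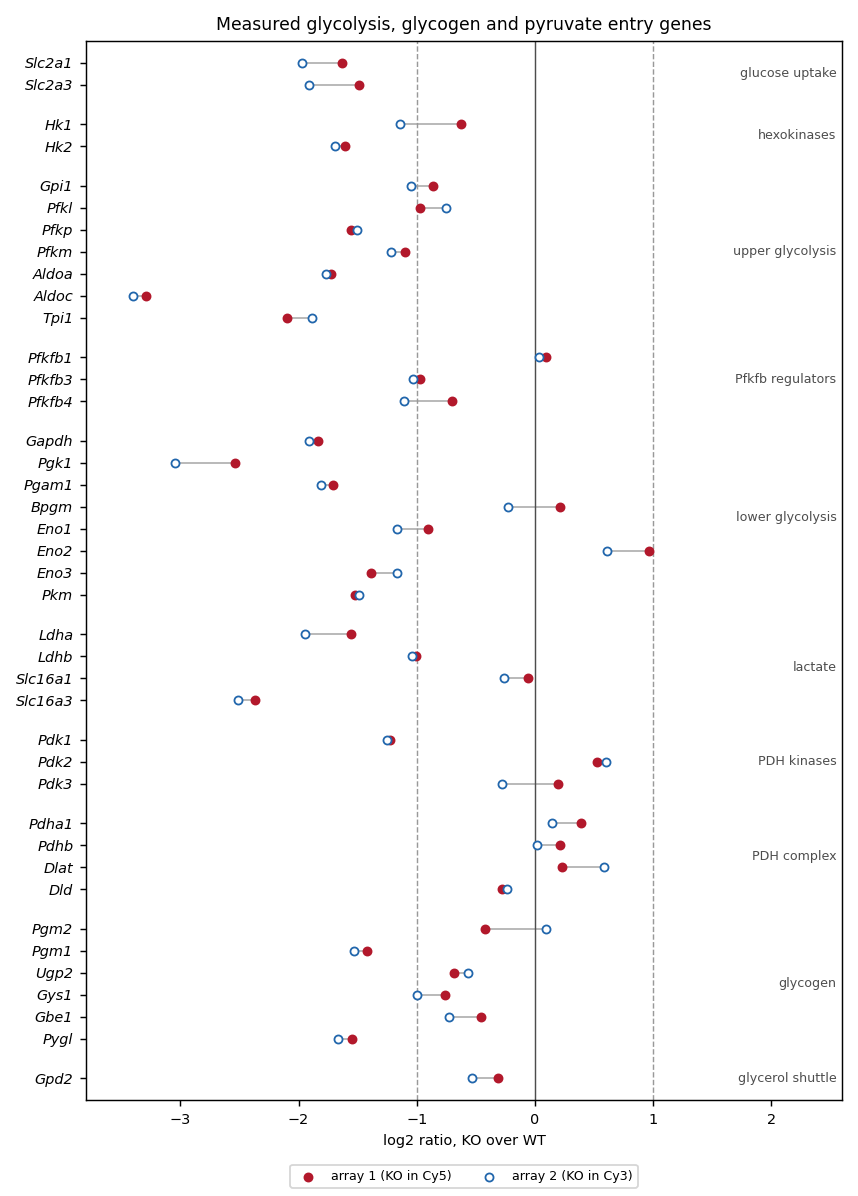
Log2 ratio KO over WT of the 40 measured genes, grouped by role, on array 1 (filled) and array 2 (open); a grey line joins the arrays and dashed lines mark 2-fold. The points of uptake, glycolysis and lactate genes lie mostly left of 0, from Aldoc at −3.34 on average, while Eno2, Pdk2 and 3 of the 4 PDH complex genes lie right of 0 on both arrays.

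Lower glycolysis turns triose phosphates into pyruvate and pays back ATP, and 5 of its 8 genes were lower. Pgk1, phosphoglycerate kinase, makes the pathway's first ATP. It stood at 11.96 and 11.41 in KO against 14.50 and 14.46 in WT, a ratio of −2.79 ± 0.36 (6.94-fold lower; chromosome X, 103398640 to 103398699, mm9, plus strand), and ranked 24 from the lowest of all measured genes. The arrays differed for it, with −2.54 and −3.05. Gapdh, which oxidizes glyceraldehyde 3-phosphate and is often used as a reference transcript, stood at 14.50 and 14.16 in KO against 16.34 and 16.07 in WT (−1.87 ± 0.04, 3.67-fold lower).

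Pgam1, phosphoglycerate mutase, had a ratio of −1.76 ± 0.07 (11.88 and 11.74 in KO, 13.60 and 13.55 in WT). Pkm, pyruvate kinase, which makes pyruvate and the second ATP, had a ratio of −1.5 ± 0.02 (11.82 and 11.69 in KO, 13.34 and 13.18 in WT). The probe does not tell the M1 and M2 splice forms apart as far as the files say. Bpgm, which diverts a lower-glycolysis intermediate to 2,3-bisphosphoglycerate, differed in sign between the arrays (0.21 and −0.23).

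Of the 3 enolases Eno2 stood apart from Eno3 and Eno1. Eno3, the muscle form, was lower, with 9.99 and 10.07 in KO against 11.39 and 11.24 in WT (−1.28 ± 0.16). Eno1, the ubiquitous form, stood at 13.65 and 13.34 in KO against 14.56 and 14.51 in WT and passed 2-fold on array 2 only (−0.91 and −1.17). The Eno3 ratio minus the Eno1 ratio averaged −0.24, with no difference on array 2. Eno2, the neuronal form, had a signal above that in WT, at 8.75 and 8.51 in KO against 7.79 and 7.90 in WT. Its ratio of 0.79 ± 0.25 was the highest of the 40 and short of 2-fold on both arrays, and exceeded that of Eno1 by 1.87 on array 1 and by 1.79 on array 2. Under median centring in place of loess, Eno2 averaged 0.46 and lay below 0 on array 2 (−0.24). Set relative to all measured genes, it was 1.00 on array 1 and 0.73 on array 2.

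Lactate dehydrogenase and the lactate transporters form the exit of the pathway. Slc16a3 encodes MCT4, the exporter of highly glycolytic cells. It stood at 8.61 and 8.49 in KO against 10.98 and 11.00 in WT, a ratio of −2.44 ± 0.10 (5.43-fold lower; chromosome 11, 120820023 to 120820082, mm9, plus strand). Slc16a1, which encodes MCT1, read 6.35 and 6.29 in KO against 6.41 and 6.55 in WT. It was near background, above it in KO RNA on 1 of the 2 arrays, and its ratio was −0.16 ± 0.14.

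Ldha, the subunit that favours lactate formation, stood at 14.12 and 13.72 in KO against 15.68 and 15.67 in WT (−1.76 ± 0.27, 3.38-fold lower). Ldhb, the subunit of the form that favours pyruvate, stood at 9.72 and 9.77 in KO against 10.73 and 10.80 in WT (−1.02 ± 0.02). Set against each other, the Ldha ratio minus the Ldhb ratio was −0.56 on array 1 and −0.91 on array 2. Ldhb was no longer called under median centring, relative or not to all genes, or with the scanner software's processed signals.

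**Figure D3:**
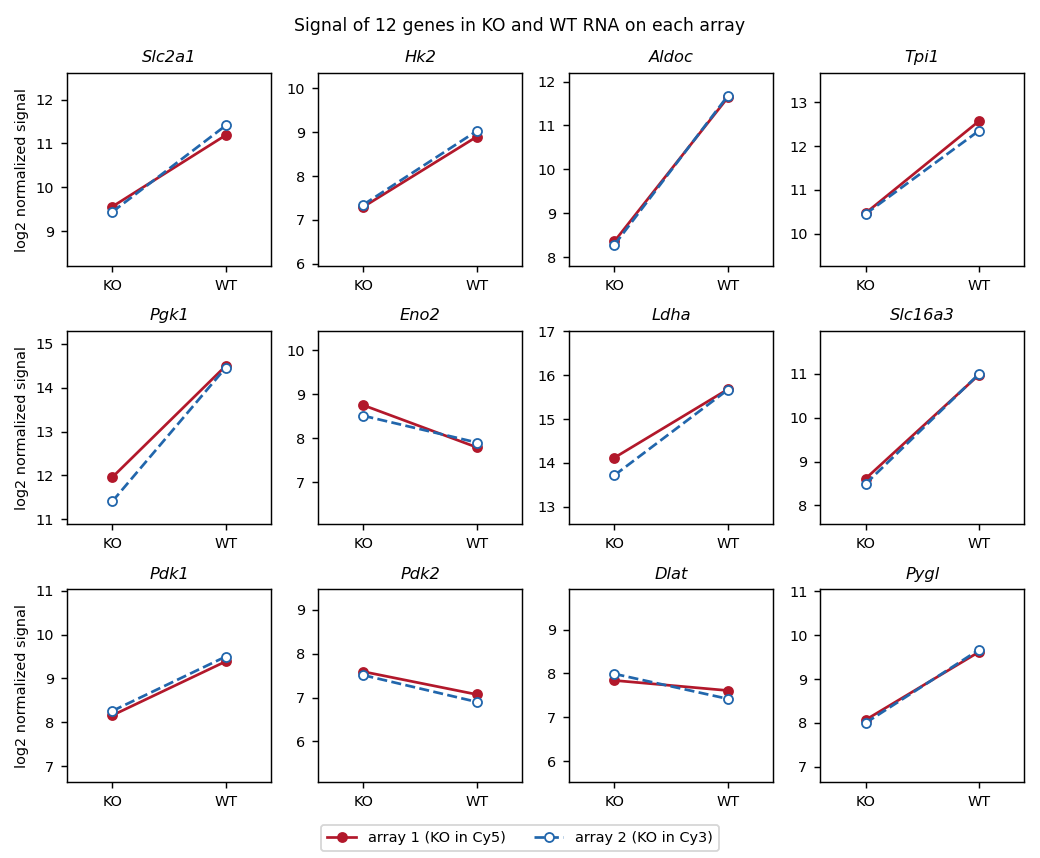
Log2 normalized signal of 12 genes in KO and WT RNA, with a line for each array (array 1 solid, array 2 dashed); all panels span the same number of log2 units. KO lies below WT in the panels except Eno2, Pdk2 and Dlat, and the steepest line is that of Aldoc (8.36 and 8.28 in KO, 11.64 and 11.68 in WT).

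Several genes had more than 1 probe, which allows the ratio to be read at more than 1 place of a transcript. For Ldha, Gapdh and Tpi1 the sequences below are of probes that lie well before the place the brightest probe reads, by the transcript positions that the files give, and each has at least 1 reading frame without a stop codon. They are 60 bases long, given 5′ to 3′ on the transcript's strand, and no letter is capitalized.
Ldha, transcript position 351, chr7:54103010-54103069 (mm9, plus strand): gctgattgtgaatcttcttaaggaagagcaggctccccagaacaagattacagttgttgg
Ldha, transcript position 970, chr7:54107294-54107353 (mm9, plus strand): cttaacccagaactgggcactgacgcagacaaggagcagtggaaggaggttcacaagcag
Gapdh, transcript position 156, chr6:125113312-125113371 (mm9, minus strand): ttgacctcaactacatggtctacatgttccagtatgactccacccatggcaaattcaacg
Gapdh, transcript position 391, chr6:125112979-125113038 (mm9, minus strand): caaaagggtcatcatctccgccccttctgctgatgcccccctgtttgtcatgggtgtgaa
Tpi1, transcript position 634, chr6:124761923-124761982 (mm9, minus strand): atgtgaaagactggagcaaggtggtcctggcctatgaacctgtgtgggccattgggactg

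At these 5 places the KO signal was below the WT signal too, with ratios nearer 0 than at the brightest probe of the gene. For Ldha the ratio was −1.01 (−0.96 and −1.05) at position 351, −1.39 (−1.25 and −1.54) at position 970 and −1.76 at the brightest probe, which starts at position 1755. For Tpi1 it was −1.52 at position 634 against −2.0 at position 1204. Each of the 7 Gapdh probes passed 2-fold on both arrays, with ratios between −1.87 and −1.37, and the printed probes gave −1.59 at position 156 and −1.44 at position 391. Other Gapdh probes gave −1.86 at position 740 and −1.84 at position 897, close to the brightest. The ratio nearest 0 was that of the probe listed at position 1164. Its letters differ at several bases from those of the brightest probe, which it overlaps by position. Whether the Gapdh ratios follow position therefore cannot be read from it. The files place 1 of the 7 on chromosome 8 although they list it under the Gapdh transcript, and cross-hybridisation was not checked.

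Over all 13 genes with at least 2 measured probes, the probes of a gene lay on the same side of 0 on both arrays. In 10 of the 13 the brightest probe had the lowest ratio. Besides Ldha, the gap was wide for Pfkp, where the brightest probe gave −1.54 and a dimmer one −0.71, and for Pfkfb3, where they gave −1.0 and −0.31. With the scanner software's processed signals, however, these were −1.64 and −2.69 for Pfkp and −1.03 and −1.02 for Pfkfb3. For dim probes the order and the gap thus depended on the processing, and they are not read as differences along a transcript. Taking the median over a gene's measured probes left 19 genes lower, the same 19. Counts also differed with brightness across genes: 16 of the 25 genes with a mean log2 intensity of at least 9 were lower (median −1.47), beside 8.92% of the 6659 measured genes that bright (median −0.03). Among the 15 dimmer genes 3 were lower, beside 5.23% of all dimmer measured genes.

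Pyruvate enters mitochondrial oxidation through the PDH complex, and the ratios of its 4 measured genes lay between −0.26 and 0.40. Pdha1, the catalytic α subunit of the first enzyme, had a ratio of 0.26 ± 0.17 (9.68 and 9.53 in KO, 9.29 and 9.39 in WT). Pdhb, its β subunit, had 0.11 ± 0.14, and Dlat, the acetyltransferase core, 0.40 ± 0.25. Dld, the dehydrogenase shared with other complexes, had −0.26 ± 0.03. Their median was 0.19. None was called, beside 6.88% of all measured genes lower and 2.46% higher, so for 4 genes the count sets nothing apart. The direction rests on the normalization: with median centring in place of loess the median over all genes became −0.37, that of the PDH complex was −0.35 and Pdha1 and Pdhb averaged −0.22 and −0.48, and relative to all measured genes the median was 0.06.

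PDH kinases switch the complex off by phosphorylation, and the 3 measured ones differed. Pdk1 was lower, with 8.16 and 8.26 in KO against 9.39 and 9.50 in WT (−1.24 ± 0.02, 2.36-fold lower). Pdk2 stood at 7.59 and 7.51 in KO against 7.07 and 6.90 in WT. Its ratio of 0.56 ± 0.06 was not called, but reached 1.1 and a call with the scanner software's processed signals, and averaged 0.42 under median centring. Pdk3 differed in sign between arrays (0.19 and −0.28). The difference between the Pdk1 and Pdk2 ratios was −1.75 on array 1 and −1.85 on array 2.

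Glycogen genes link glucose phosphates to the cell's carbohydrate store, and 2 of the 6 measured were lower. Pygl, the liver-type phosphorylase that releases glucose 1-phosphate, stood at 8.07 and 8.0 in KO against 9.62 and 9.67 in WT (−1.61 ± 0.09, 3.05-fold lower). Pgm1, which interconverts glucose 1-phosphate and glucose 6-phosphate and which the array names Pgm2, stood at 10.93 and 10.86 in KO against 12.34 and 12.39 in WT (−1.47 ± 0.08, 2.77-fold lower). Its relative Pgm2, named Pgm1 on the array, differed in sign between arrays (−0.42 and 0.09). On the side of synthesis Gys1, glycogen synthase, had −0.88 ± 0.17, Ugp2, which makes UDP-glucose, −0.63 ± 0.08, and Gbe1, the branching enzyme, −0.60 ± 0.19. These 3 lay below 0 on both arrays and were not called. Gpd2, the mitochondrial enzyme of the glycerol phosphate shuttle, had −0.42 ± 0.16.

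Beyond the 42 genes, neighbouring pathways had medians nearer 0. Beside the counts in these lists, 6.88% of all measured genes were lower and 2.46% were higher. Of 16 measured TCA cycle genes none was called, and their ratios ran from −0.46 for Sdhd, a subunit of succinate dehydrogenase, to 0.47 for Suclg1, a subunit of succinyl-CoA ligase (median −0.23). None of the 4 measured gluconeogenesis genes was called (median −0.62), and Pcx, pyruvate carboxylase, had the lowest ratio (−0.79). Of those above background in both RNAs, G6pc3 had the highest (−0.58). Pck2 was not well above background in KO RNA and has only a bound, at least 1.33-fold lower there, and with the processed signals or an offset of 1 for normexp 1 gene of the list was called lower. Of 8 other measured glycolysis isozymes and glucose transporters only Slc2a8, an intracellular glucose transporter, was lower (−1.15), and the list ran up to Adpgk at 0.24 (median −0.34). With the processed signals 3 genes of this list were lower, and with an offset of 1 for normexp 2 were.

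Among other lactate and pyruvate transport genes, Emb, a chaperone of monocarboxylate transporters, was lower (−1.06), and Mpc2 of the mitochondrial pyruvate carrier stood highest at 0.13 (5 measured, median −0.23). Among other PDH genes the values ran from −0.62 for the phosphatase Pdp1 to 0.15 for Pdpr (4 measured, median −0.32). Gyg, glycogenin, the protein primer of glycogen, was the lower 1 of 12 other glycogen genes, with 11.33 and 11.13 in KO against 12.59 and 12.70 in WT (−1.41 ± 0.22). The highest of that list was the lysosomal glucosidase gene Gaa at 0.75. Got1, the cytosolic aspartate aminotransferase of the malate-aspartate shuttle, was the lower 1 of 8 NADH shuttle genes (−1.67 ± 0.13; list median −0.48, highest Gpd1l at 0.10).

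**Figure D4:**
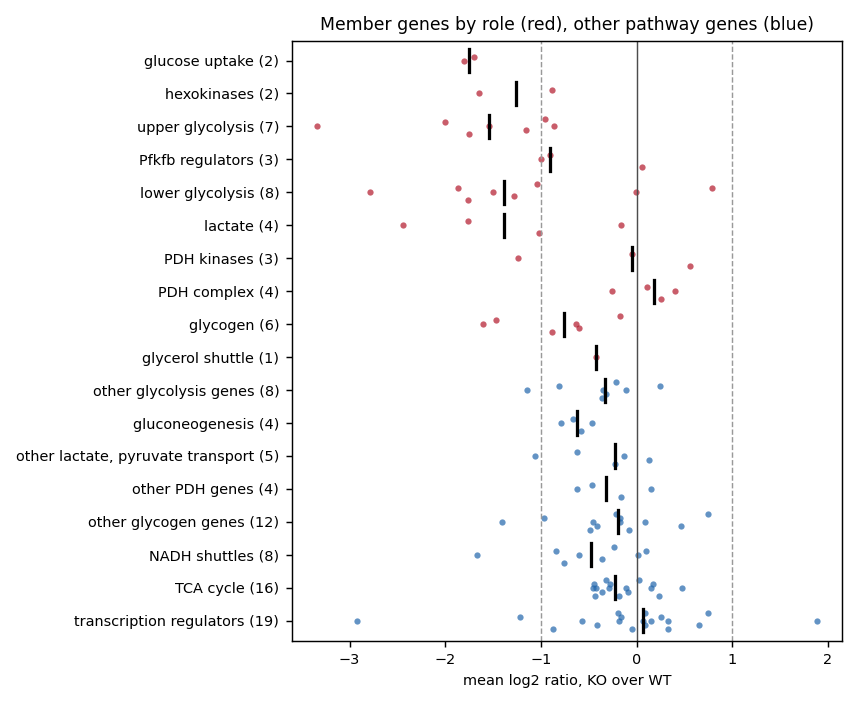
Mean log2 ratio KO over WT of each measured gene (points) and the median (black bar) for the 42-gene set by role (red) and for 8 lists of other pathway genes (blue), with the number measured in parentheses; dashed lines mark 2-fold. The medians of uptake, upper glycolysis, lower glycolysis and lactate genes lie between −1.75 and −1.39, and those of the PDH complex and the TCA cycle are 0.19 and −0.23.

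Of 19 transcription regulators of glycolysis 2 were lower and 1 was higher, counts near the 6.88% and 2.46% of all measured genes. Their median of 0.07 became −0.30 under median centring, where that of all measured genes was −0.37. Set relative to all measured genes, it was 0.11. Hif1a, the inducible subunit of HIF-1, stood at 8.74 and 8.96 in KO against 10.12 and 10.03 in WT (−1.22 ± 0.22, 2.33-fold lower). Egln3, the HIF prolyl hydroxylase that is itself a known HIF target, stood at 7.02 and 7.42 in KO against 10.07 and 10.21 in WT (−2.92 ± 0.18, 7.59-fold lower). Bcl6, a repressor known to restrain glycolysis genes in T cells, stood at 9.57 and 9.39 in KO against 7.61 and 7.56 in WT (1.89 ± 0.09, 3.71-fold higher). Myc stood at 10.90 and 11.13 in KO against 11.27 and 11.12 in WT, a ratio of −0.18 ± 0.26.

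The promoters of the set were searched for letters that factors of glycolysis genes are known to bind. ACGTG is the core of the hypoxia response element bound by HIF-1, and CACGTG is the E-box bound by Myc and related factors. Both were searched on both strands, from 250 bases before to 50 after the start site in the RefSeq promoters of GRCm38.p6, and each CACGTG also holds ACGTG. RefSeq promoters matched 41 of the 42 genes, 14 of them with several promoters, in which a match in any counted. ACGTG lay in 13 of the 18 lower genes with a promoter (72.2%) and in 11 of the other 23 (47.8%). Those 23 include Hk3 and Pfkfb2, which were not measured and which both held ACGTG. Over the array, ACGTG lay in 29.7% of the 9212 measured genes with a promoter, in 29.9% of the 659 lower ones, and in 19.6% of all 32851 promoters of that length. CACGTG lay in 2 of the 18 lower genes, Ldha and Pfkm (11.1%), and in 4 of the other 23 (17.4%), beside 11.9% of the measured genes with a promoter. These 4 include the unmeasured Pfkfb2. A match is a description of letters, and binding was not measured.

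The 250 bases before the start site are given for Pgk1, Slc16a3 and Ldha, lower genes with at least 2 matches in them, and for Tpi1, which held none there. They are from GRCm38.p6, 5′ to 3′ toward the start site, with ACGTG on either strand in capitals (CACGT is ACGTG on the other strand). They lie at chrX:106186850-106187099 on the plus strand, chr11:120948817-120949066 on the plus strand, chr7:46845554-46845803 on the plus strand and chr6:124814159-124814408 on the minus strand.
Pgk1: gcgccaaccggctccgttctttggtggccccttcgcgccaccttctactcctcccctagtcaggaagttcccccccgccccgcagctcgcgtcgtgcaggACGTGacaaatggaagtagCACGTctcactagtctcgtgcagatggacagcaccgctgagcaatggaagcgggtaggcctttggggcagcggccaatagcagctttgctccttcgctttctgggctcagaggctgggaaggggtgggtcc
Slc16a3: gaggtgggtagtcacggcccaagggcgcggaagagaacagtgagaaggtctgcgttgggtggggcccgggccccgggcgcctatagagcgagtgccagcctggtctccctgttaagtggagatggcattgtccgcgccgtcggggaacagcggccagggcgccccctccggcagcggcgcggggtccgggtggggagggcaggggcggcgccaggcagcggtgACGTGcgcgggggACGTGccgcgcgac
Ldha: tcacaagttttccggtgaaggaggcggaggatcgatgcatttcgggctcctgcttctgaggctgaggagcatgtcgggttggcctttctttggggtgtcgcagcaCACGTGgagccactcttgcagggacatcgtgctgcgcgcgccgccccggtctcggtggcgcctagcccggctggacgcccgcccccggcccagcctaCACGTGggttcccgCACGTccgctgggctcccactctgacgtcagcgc
Tpi1: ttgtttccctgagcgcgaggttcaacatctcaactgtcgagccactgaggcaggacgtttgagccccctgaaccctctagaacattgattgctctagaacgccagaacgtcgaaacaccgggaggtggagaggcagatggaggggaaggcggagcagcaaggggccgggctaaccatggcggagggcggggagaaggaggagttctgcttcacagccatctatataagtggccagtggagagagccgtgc

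The Pgk1 matches start at −150 and −131 from the start site, on opposite strands, and its ratio was −2.79. The Slc16a3 matches start at −27 and −14, and its ratio was −2.44. Ldha has 5 matches, 4 of them in pairs that make the E-boxes at −145 and −48, and 1 at −34, and its ratio was −1.76. Tpi1, with no match in any searched base, had a ratio of −2.0, and Aldoc, with the lowest ratio, had its only match at 28 after the start. Slc2a1 had a match at −36 and Hk2 had matches at −226 and −52. Of the measured genes that were not lower, Slc16a1 (−0.16), Pdk2 (0.56) and Pfkfb3 each held an E-box, at −200, −126 and −53. Pfkfb3 fell just short of the rule for lower, with −0.97 on array 1 and −1.03 on array 2.

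Of the 12 ways of processing, 6 alternatives recompute the ratios, and 17 of the 19 lower genes stayed lower in all of these, Ldhb and Pfkm being the exceptions. The remaining ones use a single array, change only the filter or repeat the processed signals, and add no check of their own. The role medians of uptake, hexokinases, upper and lower glycolysis, lactate and glycogen genes stayed below 0 in all 12, and those of the PDH complex and the PDH kinases changed sign.

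**Figure D5:**
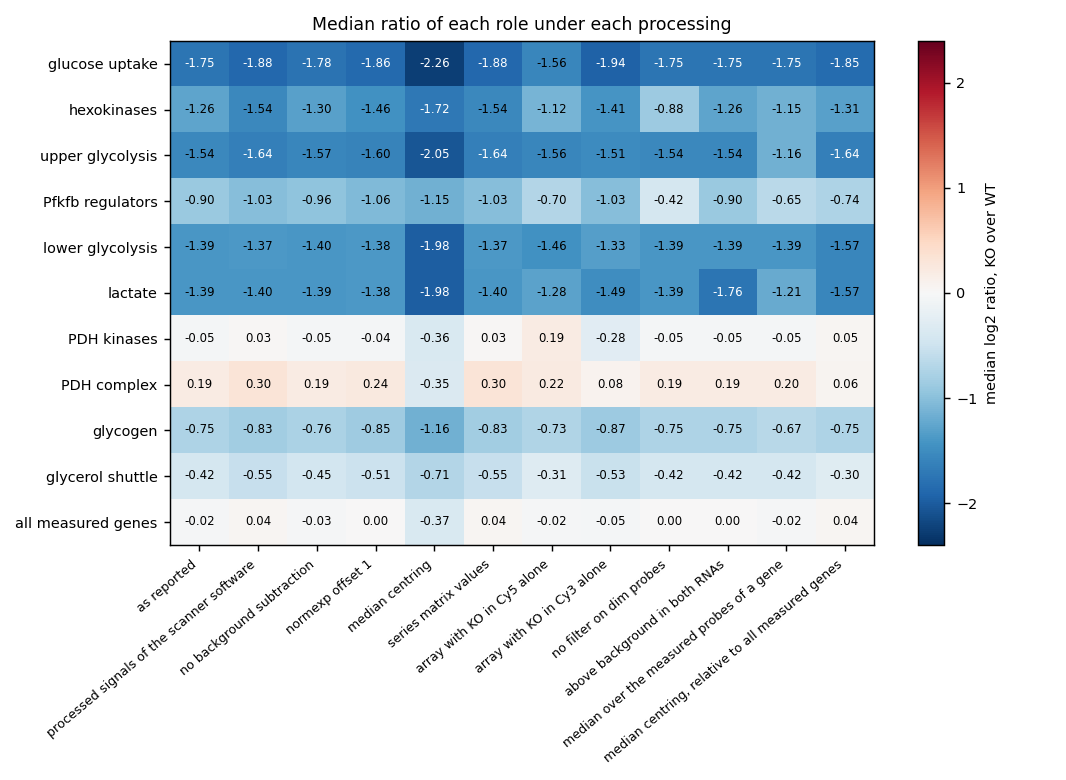
Median log2 ratio KO over WT of the genes of each role (rows) under each of 12 ways of processing (columns), with the median of all measured genes in the last row; blue is lower and red higher in KO. Glycolysis rows are blue throughout, from −0.42 in the palest Pfkfb cell to −2.26 for glucose uptake under median centring, and the PDH complex runs from −0.35 to 0.30.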

How the data were processed

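RNA from KO and WT CD4+ T cells was hybridised on 2 Agilent whole mouse genome arrays with 2 colours and exchanged dyes; per the labels both are the same biological replicate, and they were counted as 1. Hybridisation took 17 h at 65 °C with 400 ng of cRNA from each genotype, per the labels' protocols. Naive cells are named in the labels' extraction protocol, but the cultured cells were taken here as the source of the RNA, which the labels do not settle. Per the file headers, the authors deposited for every spot a raw mean intensity, its local background and a processed intensity from the scanner software. The deposited matrix has log10 ratios (Cy5 over Cy3) that equal those of the scanner software. Per the file headers Agilent Feature Extraction 10.7.3.1 was used; the submitters' processing notes give 10.5.1.1.

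Each array held 44397 spots, 1377 of them controls, and 39429 probes. No spot was saturated, 206 and 214 outlier spots were left out, and between 43.7% and 51.7% of spots were well above background in each RNA and array. Background was corrected with normexp at an offset of 50, and loess was run within arrays (limma 3.58.1, R 4.3.3), control spots having weight 0. Levels per RNA are log2 values after Aquantile normalization. After averaging a probe's spots, every ratio was expressed as KO over WT from the labelled dyes, and both arrays were averaged, in which a dye effect cancels. The brightest probe stood for a gene. A gene was measured if in at least 1 RNA its probe was well above background on each array. The offset shrinks ratios of dim probes. Names come from accessions matched to RefSeq (GRCm38.p6), and probe positions are those of the files (mm9). The pipeline was tested on simulated data in which only bright probes were changed, as many raised as reduced. That test does not cover dim genes or unequal counts of lower and higher genes. No test was possible with 1 extract per genotype, and precision is limited by there being 2 arrays. Every measured member is named, and of the other pathway lists the genes called and those at either end that were above background in both RNAs. Outside this rule, Myc is named though it was not called and not at an end, and Pck2 is named with a bound. Of the marker lists, called genes are named except for cell division, which is given by count. Members and lists were chosen with earlier results of these data known. Figures used matplotlib 3.10.9 in Python 3.11.15.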

Additional observations from a re-analysis of the deposited data

How the results depend on the processing

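The count of lower member genes ranged between 17 and 24 over 11 alternatives, with no gene's called direction turned. It was 24 when array 2 (KO in Cy3) was used alone, which added Eno1, Gpi1, Hk1, Pfkfb3 and Pfkfb4 (member median −1.12), and 17 under median centring, without Ldhb and Pfkm (member median −1.58; over all genes 881 lower and 111 higher). The scanner software's processed signals and the series matrix, which hold the same values, gave 19 lower members, with Pfkfb4 in and Ldhb out, and 1 higher, Pdk2, while all genes had 1614 lower and 867 higher. All genes had 609 higher with a normexp offset of 1 and 556 higher when array 1 (KO in Cy5) was used alone. Lamtor1 stood at −2.18 with the processed signals and the series matrix, −2.02 without background subtraction, −2.17 with offset 1 and −2.39 under median centring. Median centring set relative to all measured genes, chosen after seeing the data, gave 18 lower members (median −1.17) and Lamtor1 at −1.98. Under median centring bright genes differed between arrays (Aldoa −1.37 and −3.42). Over the ratios of single member genes under the 6 alternatives that recompute them, 145 stayed within the technical SD of the arrays and 95 moved by more, none with a turned call; the cause was not tested. No paired analysis was possible because the arrays hold 1 extract per genotype. Array 2 had fewer spots above background in KO RNA (43.7%) than array 1 (51.7%), and dim genes, among them Slc16a1, Hk3 and Pfkfb2, limit what can be read.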
